A study of Mus musculus with 13 samples.

Results

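Blastocysts recovered from ovariectomised mothers after guide RNAs had been directed at Nprl2 and Tsc2 were compared with blastocysts from ovariectomised mothers that carried no guides. The comparison was defined by the labels alone and used 4 of the 13 libraries of the series, 2 targeted and 2 untargeted, across all genes of the deposited table. Each library was made from whole mouse blastocysts of the strain background B6D2F1, a mix of C57BL/6 and DBA2J. The targeted group (targeted OVX, n = 2) has the genotype Nprl2 and Tsc2 knockout, received sgNprl2 and sgTsc2, and was taken at embryonic day 5.5. The untargeted group (OVX, n = 2) is labelled WT and was taken at the same day, also after ovariectomy, so both groups share the hormonal induction of diapause. Normal blastocysts of embryonic day 4.5 (E4.5, n = 2), WT and from mothers on a normal diet, give a reference level where it helps. The labels name no group that received control guides, and they do not say how the guides were delivered, which part of each gene they address or what share of cells was edited. Targeting, guide delivery and any handling that went with it therefore cannot be told apart. The labels do not say whether replicates came from separate mothers, so the p-values reflect a spread among libraries that may be technical. That spread was estimated over all 13 libraries in their 6 groups, not from the 4 compared. A fit of only the 4 libraries called 0 genes.

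Embryonic diapause is a reversible pause of the blastocyst before it implants, and ovariectomy prolongs it by removing the oestrogen that ends it. The kinase complex mTORC1 drives protein, lipid and nucleotide synthesis when nutrients suffice. Nprl2 is a subunit of GATOR1, which switches off the Rag GTPases that bring mTORC1 to the lysosome when amino acids are scarce. Tsc2 is the subunit of the TSC complex that switches off Rheb, the GTPase that activates mTORC1 at the lysosome. As background, active mTORC1 is known to raise translation of the transcription factor ATF4, which drives genes of amino acid synthesis and uptake, and to hold TFEB and TFE3, activators of lysosomal genes, in the cytoplasm. The series addresses how nutrient shortage induces diapause, and this comparison asks what differs in the transcriptome when these 2 brakes on mTORC1 are targeted.

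Total counts were 51583336 and 40678386 in the targeted libraries and 45577434 and 70703883 in OVX, within the range of 40678386 to 72125687 over the series. Expression is given as CPM, counts scaled to a common library total, and adjusted by trimmed means of M values (TMM), replicate 1 first, and changes as log2 fold change of targeted OVX against OVX ± SE. Targeted replicate 2 had the fewest genes detected, 15391, against 17936 in targeted replicate 1 and 18176 and 20051 in OVX. Of the 21808 genes tested, 4136 (19%) had no counts in either targeted library and 2373 (10.9%) none in either OVX library. The trophectoderm markers Cdx2, Gata3, Krt8, Krt18 and Tfap2c were all detected and summed to 3194 and 4863 CPM in targeted OVX, against 4645 and 11860 CPM in OVX, on the scale of library totals. The 5 epiblast markers, also all detected, summed to 64.3 and 47.2 CPM against 27.3 and 73.6 CPM. OVX replicate 1 stood apart. It held 6 skeletal muscle markers (Acta1, Ckm, Myl1, Tnnc2, Tnni2 and Tnnt3) at a summed 407 CPM. OVX replicate 2 had 3.03 CPM and the targeted libraries 3.08 and 1.08 CPM, where 2 and 4 of the 6 were at 0. Mylpf, a muscle marker chosen with these 6, did not follow them. It was at 410.4 and 131.7 CPM in OVX and 490.2 and 213.9 CPM in targeted OVX. With Mylpf the sums were 817.5 and 134.8 CPM in OVX and 493.3 and 215 CPM in targeted OVX. The 6 neutrophil markers summed to 598.6 and 132.4 CPM in OVX and to 16.1 and 32.9 CPM in targeted OVX. In OVX replicate 2 nearly all of this was S100a8 (94.85 CPM) and S100a9 (37.45 CPM), and 3 of the 6 were at 0. The 5 macrophage markers summed to 181.4 and 8.13 CPM in OVX and 5.08 and 5.63 CPM in targeted OVX, and 3 erythroid markers to 51.8 and 5.25 CPM against 8.94 and 0.565 CPM. Some calls and fold changes that changed without OVX replicate 1, and group medians that moved without it, are given beside the results they touch. In whole blastocysts, fewer cells of a type and less RNA per cell cannot be told apart.

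Nprl2 (chr9:107542226-107545706, GRCm38) was measured at 13.9 and 28.6 CPM in targeted OVX and at 38.04 and 36.5 CPM in OVX. Both targeted libraries lay below both OVX libraries, but the difference of −0.81 ± 0.52 did not pass the test (adjusted p = 0.552, edgeR quasi-likelihood with Benjamini-Hochberg adjustment). Tsc2 (chr17:24595816-24632630) was measured at 14.7 and 8.26 CPM against 23.3 and 14.1 CPM, and the groups overlapped. Its difference was −0.70 ± 0.49 (adjusted p = 0.575). Exons of Tsc2 overlap those of Pkd1 on the other strand, and the library kit is not stated to keep strand. These are counts over whole genes, and small deletions from a guide need not lower them, so the RNA level does not check the labels here. Transcripts of both genes were present in both targeted libraries. The E4.5 libraries held Nprl2 at 11.9 and 18.5 CPM and Tsc2 at 16.95 and 14.4 CPM.

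The other subunits of the complexes were equally without a call. Nprl3, a partner of Nprl2 in GATOR1, was at 1.45 and 2.79 CPM in targeted OVX and 3.27 and 3.67 CPM in OVX (−0.71 ± 0.72). Depdc5, the remaining GATOR1 subunit, was at 4.39 and 2.65 CPM against 5.56 and 5.37 CPM (−0.63 ± 0.73). Tsc1, the stabilising partner of Tsc2, was at 9.03 and 8.71 CPM against 9.9997 and 3.93 CPM, and Tbc1d7, a small further subunit, at 8.30 and 13.2 CPM against 10.03 and 14.8 CPM. Both overlapped between groups. Rheb, the target of the TSC complex, stood at 415 and 687 CPM in targeted OVX, above 358 and 302 CPM in OVX (0.74 ± 0.30, unadjusted p = 0.0274, adjusted p = 0.397). Rhebl1, its paralogue, stood at 4.77 and 3.47 CPM, below 12.3 and 10.3 CPM (−1.46 ± 0.47, adjusted p = 0.28). Neither of these differences passed the edgeR test, and DESeq2, another count test, called Rhebl1 lower (adjusted p = 0.000269, in a range of 0.000269 to 0.715 over the alternatives).

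Across all genes, edgeR called 8 of the 21808 tested at an adjusted p under 0.05. One rose, 0.00459% of genes tested, and 7 fell, 0.0321%. At an unadjusted p under 0.05 there were 683 higher genes (3.13%) and 1689 lower genes (7.74%), and DESeq2 called 348 higher and 899 lower (2% and 5.16% of the 17421 genes it gave an adjusted p). All 8 of the edgeR calls were among the DESeq2 calls. A fit of only the 4 libraries called 0 genes, with 379 higher and 893 lower at an unadjusted p under 0.05. Over all genes tested, the log2 fold changes had a median of −0.09, or −0.26 with library totals as the scale. Both targeted libraries lay above both OVX libraries in 2800 genes (12.8%) and below both in 4172 (19.1%). The counts for gene groups are read against these shares. The shares take in genes of every level, also those with no counts in a group, and were not matched to the level of the listed genes. How far they depend on level was not tested.

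Eif4ebp1 was the gene called higher. It encodes 4E-BP1, which represses cap-dependent translation until mTORC1 phosphorylates it, and it is also a known ATF4 target. Its level stood at 2527 and 3227 CPM in targeted OVX and 551 and 481 CPM in OVX, with E4.5 at 339 and 307 CPM. Both targeted libraries thus held several times the level of any OVX or E4.5 library, and the rise was 2.48 ± 0.37 (adjusted p = 0.0415). The gene lies at chr8:27260329-27276674. Over the alternatives its log2 fold change stayed between 2.29 and 2.64, and the adjusted p between 4.25e-09 and 0.595. It lay above 0.05 without targeted replicate 2 (0.0615), with median-of-ratios scaling (0.0563), with a term for libraries that hold muscle transcripts (0.0504) and in the fit of only the 4 libraries (0.595).

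Gchfr, which encodes the protein that binds and tunes GTP cyclohydrolase, the entry enzyme of tetrahydrobiopterin synthesis, fell from 642 and 396 CPM in OVX to 38.5 and 49.7 CPM in targeted OVX (−3.56 ± 0.38, adjusted p = 0.0103). E4.5 held 3.75 and 5.36 CPM, so the targeted level lay between OVX and E4.5. The enzyme it regulates, Gch1, was at 105 and 199 CPM in targeted OVX and 218 and 296 CPM in OVX (−0.76 ± 0.44, adjusted p = 0.53), which did not pass. Emp2, a tetraspan membrane protein of epithelia, fell from 283 and 527 CPM to 48.7 and 45.7 CPM (−3.10 ± 0.35, adjusted p = 0.0103). Here the targeted libraries lay below E4.5 as well, which held 140 and 172 CPM. The 2 genes lie at chr2:119167773-119172390 and chr16:10281749-10313968.

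Crym, a thyroid hormone binding protein, fell from 35.3 and 211 CPM in OVX to 0.913 and 1.13 CPM (−6.91 ± 0.86, adjusted p = 0.019). The OVX libraries differed widely in this gene, but the lower of them was still far above both targeted libraries, and E4.5 held 6.31 and 4.38 CPM. Mettl27, a putative methyltransferase, fell from 24.8 and 32.5 CPM to 1.62 and 1.52 CPM (−4.18 ± 0.58, adjusted p = 0.0292), with E4.5 at 11.04 and 24.02 CPM. Without targeted replicate 2 the adjusted p of Mettl27 was 0.0781, and with library totals 0.0652, in a range of 4.71e-12 to 0.595 over the alternatives. Crym lies at chr7:120186380-120202111 and Mettl27 at chr5:134932368-134942637.

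Of the 7 genes that fell, 3 had no counts in either targeted library. Mlycd, the malonyl-CoA decarboxylase that relieves the block on fatty acid oxidation, was at 6.503 and 5.73 CPM in OVX and 3.64 and 4.11 CPM in E4.5. Against a floor of 3 counts per library, Mlycd was at least 76.1-fold below its OVX mean of 6.12 CPM in targeted OVX (edgeR adjusted p = 0.0256). Cryl1, a crystallin related to hydroxyacyl-CoA dehydrogenases, was at 1.47 and 7.23 CPM in OVX (edgeR adjusted p = 0.026). By the same floor it was at least 54.1-fold below its OVX mean of 4.35 CPM. OVX replicate 2 carries most of that mean, so the bound does not hold against OVX replicate 1. Mlycd lies at chr8:119394878-119411102 and Cryl1 at chr14:57274993-57398529. Both were low in OVX, and targeted OVX also had more genes at 0 throughout, as given above. The adjusted p of Mlycd ranged from 3.44e-08 to 0.595 over the alternatives and that of Cryl1 from 3.29e-11 to 0.595. With counts divided by 4 they were 0.051 and 0.0811, with limma on log2 of FPKM plus 1 they were 0.223 and 0.479, and on FPKM plus 0.1 they were 0.054 and 0.107. Without OVX replicate 1, the compared library that held muscle transcripts, the log2 fold change of Eif4ebp1 was 2.57. Those of Gchfr, Emp2, Crym and Mettl27 were −3.18, −3.49, −7.70 and −4.38. The remaining OVX library still held S100a8 and S100a9, at 94.85 and 37.45 CPM, while 3 of the 6 neutrophil markers were at 0.

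**Figure D1:**
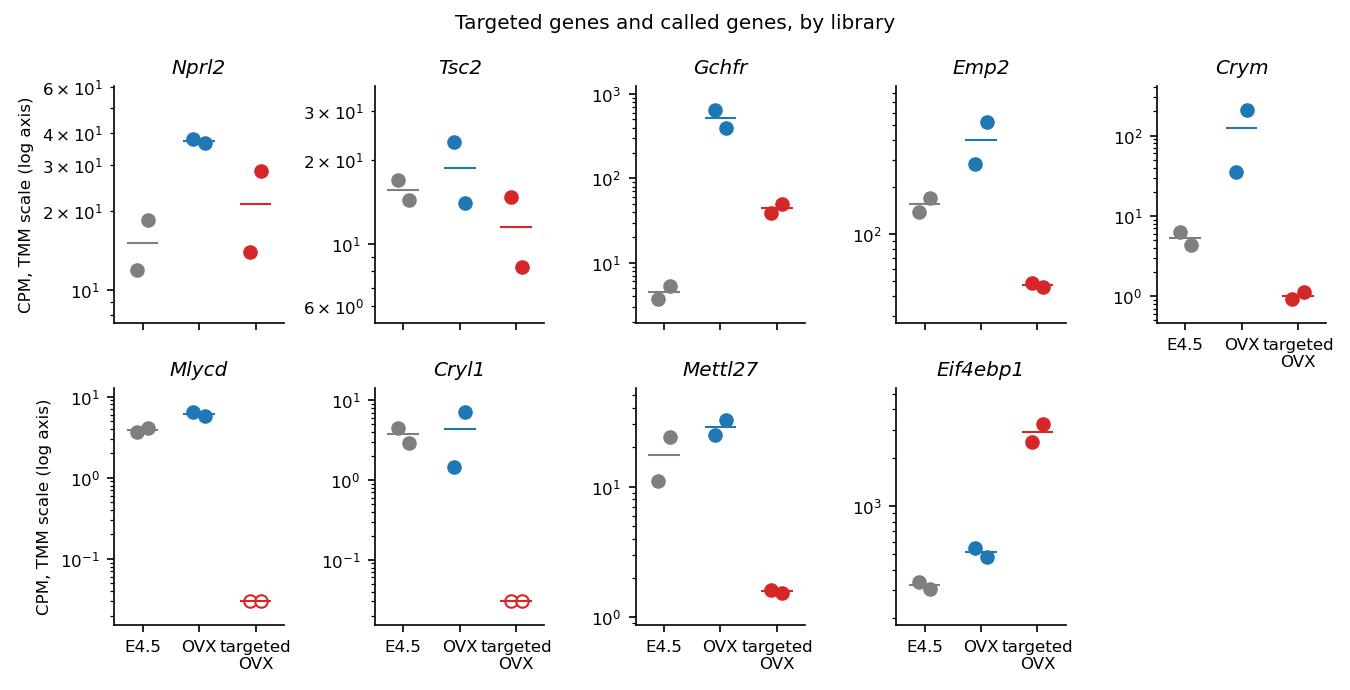
CPM on the TMM scale (log axis, a separate range in each panel) of Nprl2, Tsc2 and 7 of the called genes in the 2 libraries each of E4.5 (grey), OVX (blue) and targeted OVX (red); horizontal lines are means, and open circles at the bottom are libraries with no counts. Eif4ebp1 is the called gene in which the red points lie above the blue ones, and Mlycd and Cryl1 are at 0 in both targeted libraries.

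The other higher genes named here had the smallest unadjusted p among genes of sufficient level, and none passed the adjusted threshold of the edgeR test, while DESeq2 called each of them. Snhg1, a host transcript of small nucleolar RNAs, was at 105 and 131 CPM in targeted OVX against 28.1 and 39.0 CPM in OVX (1.81 ± 0.32, adjusted p = 0.0721). Tmcc1, an endoplasmic reticulum membrane protein, was at 1017 and 755 CPM against 77.9 and 167 CPM (2.86 ± 0.54, adjusted p = 0.0933). Akr1b8, an aldo-keto reductase, was at 2170 and 2891 CPM against 921 and 468 CPM (1.86 ± 0.37, adjusted p = 0.0983). Bcat1, which transfers amino groups from branched-chain amino acids, was at 101 and 116 CPM against 29.5 and 17.3 CPM (2.22 ± 0.48, adjusted p = 0.124), and its E4.5 level of 113 and 114 CPM was close to the targeted one. Avpi1, Mrto4, Ptp4a1 and Phf5a had log2 fold changes of 1.73, 1.69, 1.67 and 1.32. Dppa2, Ddit3 and Psat1 are described with their groups. Without OVX replicate 1, Akr1b8 was called (adjusted p = 0.0215, in a range of 8.93e-05 to 0.595 over the alternatives), with the lone OVX library assumed to vary like the other groups. In the same way Tmcc1 was called without OVX replicate 2 (adjusted p = 0.0394), Snhg1 and Akr1b8 without targeted replicate 1 (0.0435 and 0.0373) and Dppa2 without targeted replicate 2 (0.0485). Over the alternatives the adjusted p ranged from 2.37e-08 to 0.595 for Tmcc1, from 6.16e-10 to 0.595 for Snhg1 and from 2.85e-06 to 0.595 for Dppa2.

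**Figure D2:**
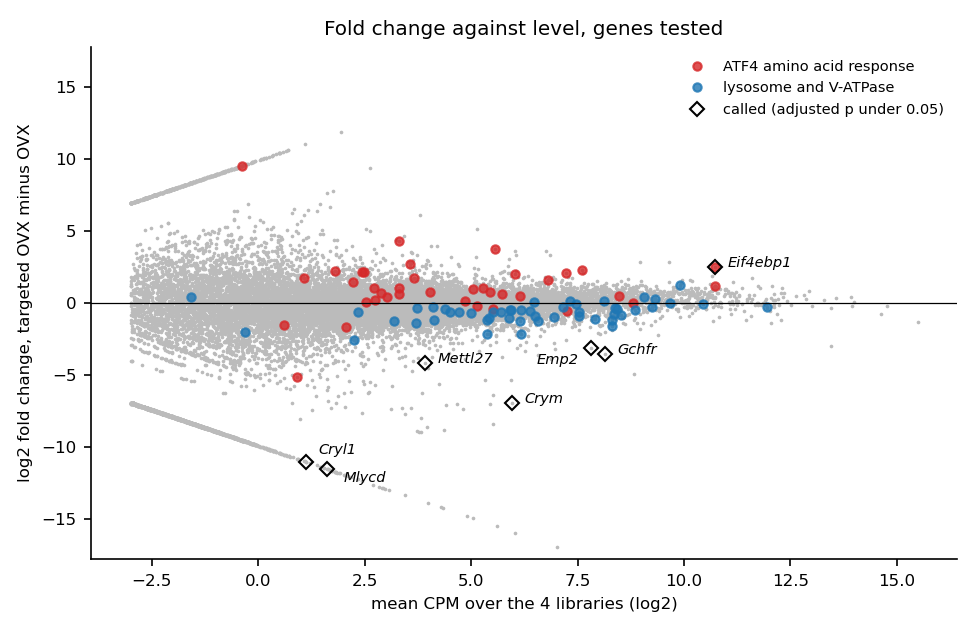
Log2 fold change of targeted OVX against OVX (vertical axis) by mean log2 CPM over the 4 libraries (horizontal axis) for genes tested above a mean of −3, with ATF4 response genes in red, lysosome and V-ATPase genes in blue and 7 of the called genes as open diamonds. The straight bands at low levels are genes with no counts in 1 of the groups, and most red points lie above the blue ones.

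The remaining parts of the amino acid sensing pathway were described from lists of their members. Of 15 genes of GATOR2 and the amino acid sensors, which act upstream of GATOR1, 1 lay above OVX in both targeted libraries and 4 below, with a median log2 fold change of −0.43. Of 13 genes of the Rag GTPases, Ragulator and folliculin, the lysosomal platform for mTORC1, 1 lay above and 3 below, with a median of −0.28 that became 0.03 without OVX replicate 1. Rraga, which encodes RagA, the GTPase on which GATOR1 acts, was at 12.2 and 7.30 CPM in targeted OVX, 40.9 and 43.0 CPM in OVX and 13.1 and 12.9 CPM in E4.5. Its difference of −2.11 ± 0.41 had an adjusted p of 0.0983. Fnip2, a folliculin partner, was at 5.99 and 6.60 CPM against 16.1 and 12.1 CPM (−1.16 ± 0.52, adjusted p = 0.444). None of the genes of these 2 lists was called by edgeR. At an unadjusted p under 0.05 there were 0 higher and 3 lower, Castor2 with Rraga and Fnip2, and DESeq2 called 1 lower in the list of the Rag GTPases and 0 in that of GATOR2.

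Of 29 genes of the mTOR complexes and their substrates, 7 lay above OVX and 4 below, and Eif4ebp1 was the call among them. Rptor, the mTORC1 subunit that recruits substrates, was at 15.1 and 16.8 CPM in targeted OVX, 3.595 and 5.31 CPM in OVX and 15.4 and 18.5 CPM in E4.5. Its difference of 1.84 ± 0.53 did not pass (adjusted p = 0.236). Tti1 and Telo2, which assemble kinases of the mTOR family, were on the other side, at −1.81 ± 0.58 and −1.82 ± 0.80, and did not pass either. The list's median of 0.26 became −0.13 without OVX replicate 1.

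Most genes of the ATF4 amino acid response lay above their OVX levels. Of 38 tested of the 39 listed (Fgf21 had no counts), 22 lay above both OVX libraries in both targeted libraries (57.9%, against 12.8% of all genes) and 2 below (5.26%, against 19.1%). The list's median log2 fold change was 1.001, against −0.09 over all genes, and 1.07 without OVX replicate 1. At an unadjusted p under 0.05, 10 of the 38 were higher and 1 lower, and Eif4ebp1 passed the adjusted test. The list's median stayed between 0.49 and 1.26 over the alternatives.

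Among the regulators, Atf4 itself was at 71.0 and 94.8 CPM in targeted OVX and 46.5 and 70.6 CPM in OVX (0.50 ± 0.53, adjusted p = 0.765), below the 150 and 217 CPM of E4.5. ATF4 is controlled mainly in translation, which these data do not measure. Ddit3, the stress transcription factor CHOP, was at 355 and 289 CPM in targeted OVX against 61.1 and 71.0 CPM in OVX and 59.9 and 52.4 CPM in E4.5 (2.28 ± 0.45, adjusted p = 0.0983). Trib3, a pseudokinase that feeds back on this response, was at 44.9 and 131 CPM against 6.76 and 6.32 CPM (3.75 ± 0.86, adjusted p = 0.135). Atf5, a related factor, was at 17.6 and 23.4 CPM against 2.42 and 3.92 CPM (2.69 ± 1.55, adjusted p = 0.528). In these genes both targeted libraries exceeded both OVX libraries. Gdf15, a secreted stress cytokine, was at 15.6 and 22.1 CPM against 0.327 and 1.58 CPM (4.28 ± 1.39, adjusted p = 0.286). Nupr1, a stress-induced chromatin protein, was at 2116 and 2618 CPM against 1387 and 712 CPM (1.17 ± 0.88, adjusted p = 0.609), with 13.6 and 29.3 CPM in E4.5.

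Among the enzymes of serine synthesis, Psat1 was at 250 and 237 CPM in targeted OVX, against 43.3 and 71.4 CPM in OVX and 61.2 and 56.0 CPM in E4.5 (2.09 ± 0.46, adjusted p = 0.125). Psph, the last step, was at 138 and 198 CPM against 35.2 and 75.3 CPM (1.60 ± 0.52, adjusted p = 0.29). Phgdh, the first step, did not share this pattern, with 90.0 and 153 CPM against 109 and 256 CPM and overlapping groups. Mthfd2, the mitochondrial folate enzyme that takes up serine carbon, was at 81.1 and 128 CPM against 21.7 and 31.0 CPM (1.99 ± 0.54, adjusted p = 0.225). Asns, the asparagine synthetase, was at 379 and 449 CPM against 307.5 and 294 CPM, a small difference of 0.46 ± 0.43 (adjusted p = 0.709). Slc7a11, the cystine transporter, was on the other side, at 0.203 and 0 CPM against 7.09 and 0.272 CPM, where 1 OVX library sets the difference.

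**Figure D3:**
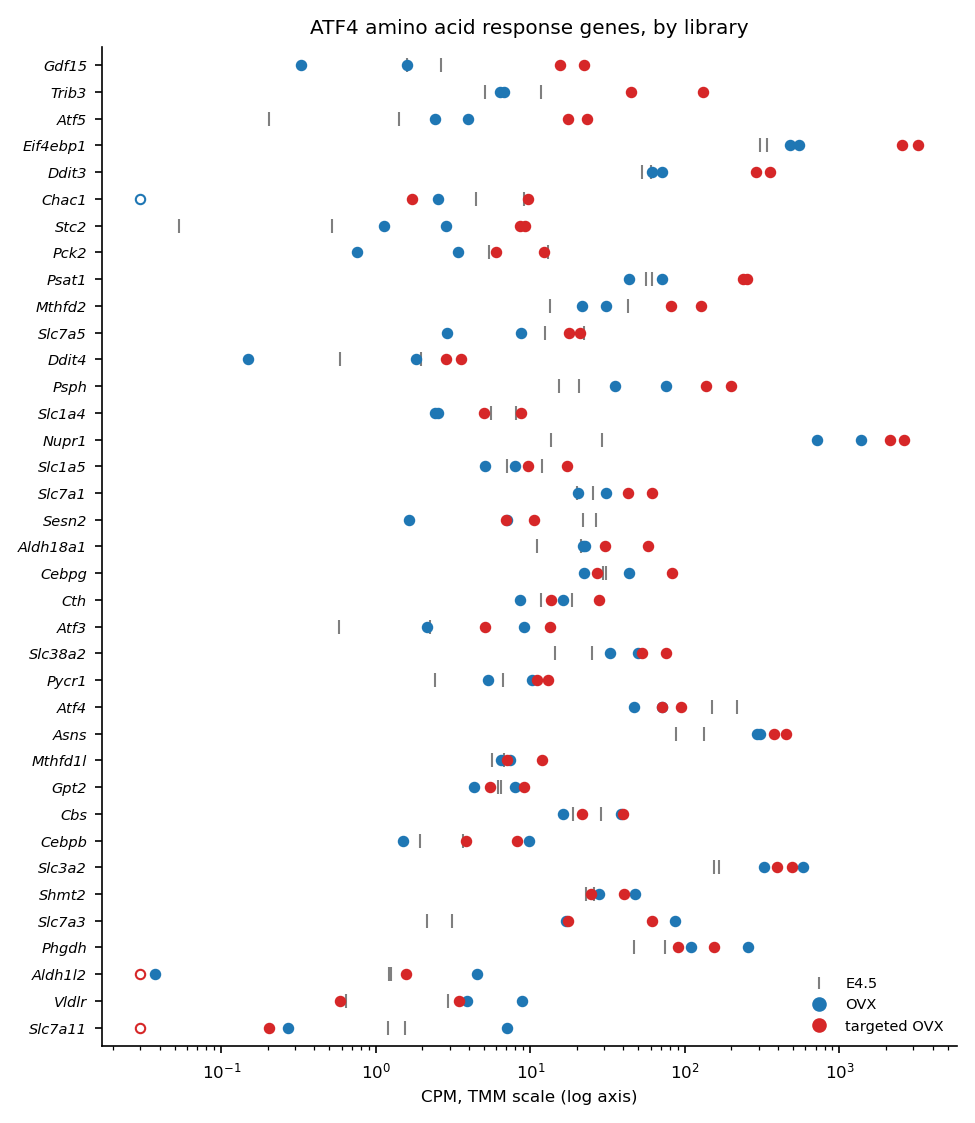
CPM on the TMM scale (log axis) of 37 ATF4 response genes with a mean log2 CPM above 0, ordered by log2 fold change, in each library of E4.5 (grey ticks), OVX (blue) and targeted OVX (red); open circles are libraries with no counts. In the upper rows, from Gdf15 to Psph, most red points lie to the right of the blue ones, and in the bottom rows the groups overlap or are reversed.

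ATF4 binds a composite element found in many of these genes, for which promoters were searched as TGATGNAA on both strands. The promoter windows, from RefSeq on GRCm38.p6, run from 250 bases before to 50 bases after the start. The motif was in 3.97% of the 32851 promoters and in at least 1 promoter of 4.51% of genes, and in 11 of the 33 list genes with a window (33.3%). Sequences of 2 genes are shown because both genes lay above OVX in both targeted libraries while the size of the difference was unlike. The match is in capitals, and each sequence is written 5′ to 3′ along the gene's strand, with Trib3 at chr2:152344011-152344310 (minus strand) and Asns at chr6:7693160-7693459 (minus strand).
Trib3: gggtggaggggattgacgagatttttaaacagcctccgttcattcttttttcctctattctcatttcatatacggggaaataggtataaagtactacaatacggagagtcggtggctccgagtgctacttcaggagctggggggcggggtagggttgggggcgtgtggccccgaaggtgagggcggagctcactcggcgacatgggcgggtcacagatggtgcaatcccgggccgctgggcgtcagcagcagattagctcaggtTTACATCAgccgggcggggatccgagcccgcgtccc
Asns: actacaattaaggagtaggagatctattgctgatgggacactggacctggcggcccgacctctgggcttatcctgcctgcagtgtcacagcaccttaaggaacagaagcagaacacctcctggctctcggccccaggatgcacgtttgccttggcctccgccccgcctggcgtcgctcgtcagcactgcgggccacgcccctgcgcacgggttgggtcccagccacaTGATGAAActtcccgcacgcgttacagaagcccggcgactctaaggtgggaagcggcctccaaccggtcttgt
Of 10 tested list genes with a match, 6 lay above OVX, 2 below and 2 overlapped, and of 22 with a window but no match, 13 lay above, 0 below and 9 overlapped.

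Cytosolic aminoacyl-tRNA synthetases, which load tRNAs with amino acids and include known ATF4 targets, also lay mostly above OVX, with smaller differences. Of 20 genes, 12 lay above OVX (60%, against 12.8% of all genes) and 2 below, with a median of 0.49. At an unadjusted p under 0.05, 7 were higher and 0 lower; edgeR called none and DESeq2 called 3 higher. Yars was at 106 and 158 CPM in targeted OVX against 46.4 and 57.1 CPM in OVX (1.35 ± 0.40, adjusted p = 0.243), Gars at 258 and 294 CPM against 118 and 162 CPM (0.98 ± 0.29, adjusted p = 0.251), and Cars at 72.8 and 78.0 CPM against 25.2 and 38.9 CPM (1.23 ± 0.43, adjusted p = 0.322). The median stayed between 0.34 and 0.55 over the alternatives. Of 29 amino acid transporters, 6 lay above OVX and 5 below, with a median of −0.03 that was −0.39 without OVX replicate 1 and 0.45 without OVX replicate 2. Slc7a5, the leucine transporter, was at 17.7 and 21.0 CPM against 2.91 and 8.72 CPM (1.73 ± 0.65, adjusted p = 0.373). Slc38a4, a placental neutral amino acid transporter, was at 38.8 and 61.5 CPM against 110 and 95.7 CPM (−1.04 ± 0.32, adjusted p = 0.269).

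Many genes of the lysosome and its proton pump, the V-ATPase, lay below their OVX levels. Of 50 genes, 24 lay below both OVX libraries in both targeted libraries (48%, against 19.1% of all genes) and 1 above (2%, against 12.8%). The median log2 fold change was −0.61, and it stayed between −0.76 and −0.44 over the alternatives. At an unadjusted p under 0.05, 17 were lower and 0 higher; edgeR called none and DESeq2 called 7 lower. Against OVX replicate 2 alone, the OVX library with few macrophage markers, 32 of the 50 lay below (64%, against 38.8% of all genes) and 9 above (18%, against 22.7%). Against OVX replicate 1 alone, 34 lay below (68%, against 33.5%) and 2 above (4%, against 24%). The summed neutrophil markers were higher in both OVX libraries than in targeted OVX, in OVX replicate 2 through S100a8 and S100a9, as given above. The part of neutrophil transcripts in these values was not tested.

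Several genes of the lysosome were closer to their E4.5 level in targeted OVX than in OVX, where they lay above it. Over the 50 genes of the list, the median log2 fold change against E4.5 was 0.425 in targeted OVX and 1.059 in OVX. Ctsa, which protects other lysosomal enzymes, was at 143 and 170 CPM in targeted OVX, 474 and 487 CPM in OVX and 162 and 178 CPM in E4.5. Its difference from OVX was −1.61 ± 0.34 (adjusted p = 0.119). Neu1, the sialidase that Ctsa stabilises, was at 30.1 and 23.8 CPM against 77.8 and 157 CPM (−2.12 ± 0.42, adjusted p = 0.0983), with E4.5 at 38.9 and 50.4 CPM. Npc2, which carries cholesterol out of the lysosome, was at 252 and 271 CPM against 506 and 438 CPM, a difference of −0.85 ± 0.26 (adjusted p = 0.267). The comparison of OVX with E4.5 shares the OVX libraries with this one, so the 2 are set side by side only as values: OVX minus E4.5 was 1.495 for Ctsa, 1.39 for Neu1 and 1.28 for Npc2.

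Further genes of the lysosome lay below OVX without passing the test. The cathepsin Ctsl was at 223 and 168 CPM in targeted OVX against 385 and 492 CPM in OVX (−1.16 ± 0.43, adjusted p = 0.366). Ctsh was at 14.4 and 15.6 CPM against 27.5 and 108 CPM, where the OVX libraries were far apart (−2.18 ± 0.59, adjusted p = 0.225). Sgsh, a heparan sulfate sulfatase, was at 0.812 and 2.002 CPM against 7.71 and 8.57 CPM (−2.53 ± 0.61, adjusted p = 0.161). Lamp2, a membrane protein of the lysosome, and Atp6v1b2, a subunit of the proton pump, had differences of −1.17 ± 0.41 and −0.97 ± 0.32. The log2 fold changes of Neu1 and Ctsh were −2.55 and −2.86 without OVX replicate 1, and −1.53 and −0.88 without OVX replicate 2. Over the alternatives their adjusted p ranged from 0.000149 to 0.595 and from 0.00464 to 0.726.

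**Figure D4:**
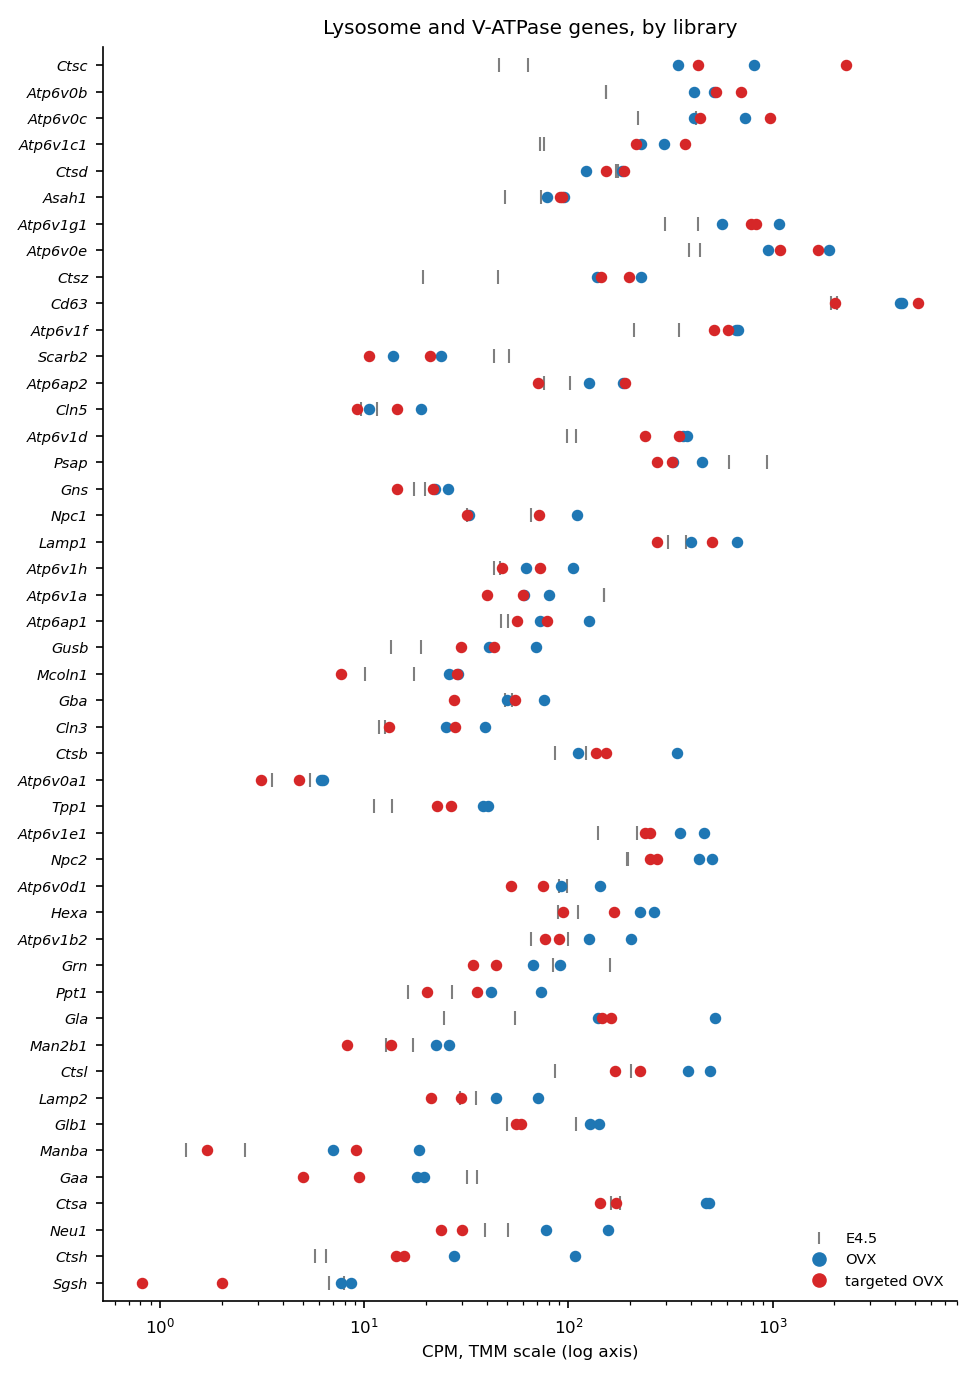
CPM on the TMM scale (log axis) of 47 lysosome and V-ATPase genes above the same level, ordered by log2 fold change, in each library of E4.5 (grey ticks), OVX (blue) and targeted OVX (red). From Sgsh upward to Tpp1 the red points lie to the left of the blue ones in most rows, and towards the top the groups overlap.

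TFEB and TFE3 bind the CLEAR element, searched as the palindrome TCACGTGA. It was in 0.974% of promoters and 1.12% of genes with a window, and in 8 of 38 list genes with a window (21.1%). Ctsa is shown because it is the hydrolase with the most even values in OVX and has 2 matches, in capitals, at chr2:164833523-164833822 (plus strand, GRCm38.p6). Another Ctsa window, at chr2:164832622-164832921, held no match and is not shown.
Ctsa: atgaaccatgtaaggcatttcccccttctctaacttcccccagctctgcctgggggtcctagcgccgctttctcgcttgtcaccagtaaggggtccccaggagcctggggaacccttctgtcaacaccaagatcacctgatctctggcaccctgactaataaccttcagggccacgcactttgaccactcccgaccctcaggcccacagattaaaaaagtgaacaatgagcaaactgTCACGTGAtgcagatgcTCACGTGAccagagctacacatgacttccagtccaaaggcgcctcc
Of the 8 list genes with a match, 3 lay below OVX and 5 overlapped, and of 30 without one, 17 lay below, 1 above and 12 overlapped.

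Of 40 autophagy genes, 11 lay below OVX (27.5%, against 19.1%) and 4 above (10%, against 12.8%). Their median was −0.31 and ranged from −0.45 to −0.12 over the alternatives. Atg4b, the protease that processes LC3 proteins, was at 44.65 and 43.3 CPM in targeted OVX, 123 and 125 CPM in OVX and 70.0 and 73.8 CPM in E4.5 (−1.496 ± 0.28, adjusted p = 0.0874). Gabarap, one of the LC3-like proteins, was at 120.5 and 117 CPM against 200 and 319 CPM (−1.13 ± 0.35, adjusted p = 0.275). Bnip3l, a receptor for removal of mitochondria, was at 40.5 and 30.3 CPM against 118 and 112 CPM (−1.70 ± 0.35, adjusted p = 0.112).

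Several groups of genes for protein synthesis lay above OVX more often than the 12.8% of all genes. Of 50 genes of ribosome biogenesis and RNA polymerase I, 22 lay above OVX (44%) and 1 below, with a median of 0.34 that stayed between 0.13 and 0.50 over the alternatives. Mrto4, a ribosome assembly factor, was at 189 and 194 CPM in targeted OVX, 59.6 and 59.0 CPM in OVX and 64.9 and 47.0 CPM in E4.5 (1.69 ± 0.36, adjusted p = 0.115). Of 43 translation factors, 14 lay above (32.6%) and 2 below, with a median of 0.21 that was 0.02 with library totals as the scale. Eif5a, a factor of elongation, was at 5577 and 3860 CPM against 2175 and 2449 CPM (1.03 ± 0.36, adjusted p = 0.333).

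Of 79 cytosolic ribosomal protein genes, 25 lay above OVX (31.6%) and 2 below, with a median of 0.64. The median was 1.19 without OVX replicate 1 and 0.15 without OVX replicate 2, and both targeted libraries exceeded OVX replicate 2 in 73 of the 79 (92.4%, against 22.7% of all genes) but OVX replicate 1 in 25 (31.6%, against 24%). Rps6, whose protein is phosphorylated downstream of mTORC1, was at 3318 and 1834 CPM against 1769 and 1028 CPM (0.88 ± 0.38, adjusted p = 0.427), and Rpl21 at 824 and 437 CPM against 293 and 95.6 CPM (1.70 ± 0.59). Rpl29 went the other way, at 7.001 and 42.9 CPM against 314 and 135 CPM (−3.17 ± 0.73, adjusted p = 0.135). Ribosomal protein genes have many near-identical pseudogene copies, so their counts are uncertain where reads could be split. For nuclear genes of oxidative phosphorylation the sign itself depended on the library: their median was 0.10 over 72 genes, 1.08 without OVX replicate 1 and −0.37 without OVX replicate 2, so no direction can be given. The 13 mitochondrially encoded mRNAs had a median of 0.14, with 2 above and 1 below, and of −0.11 without OVX replicate 2.

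**Figure D5:**
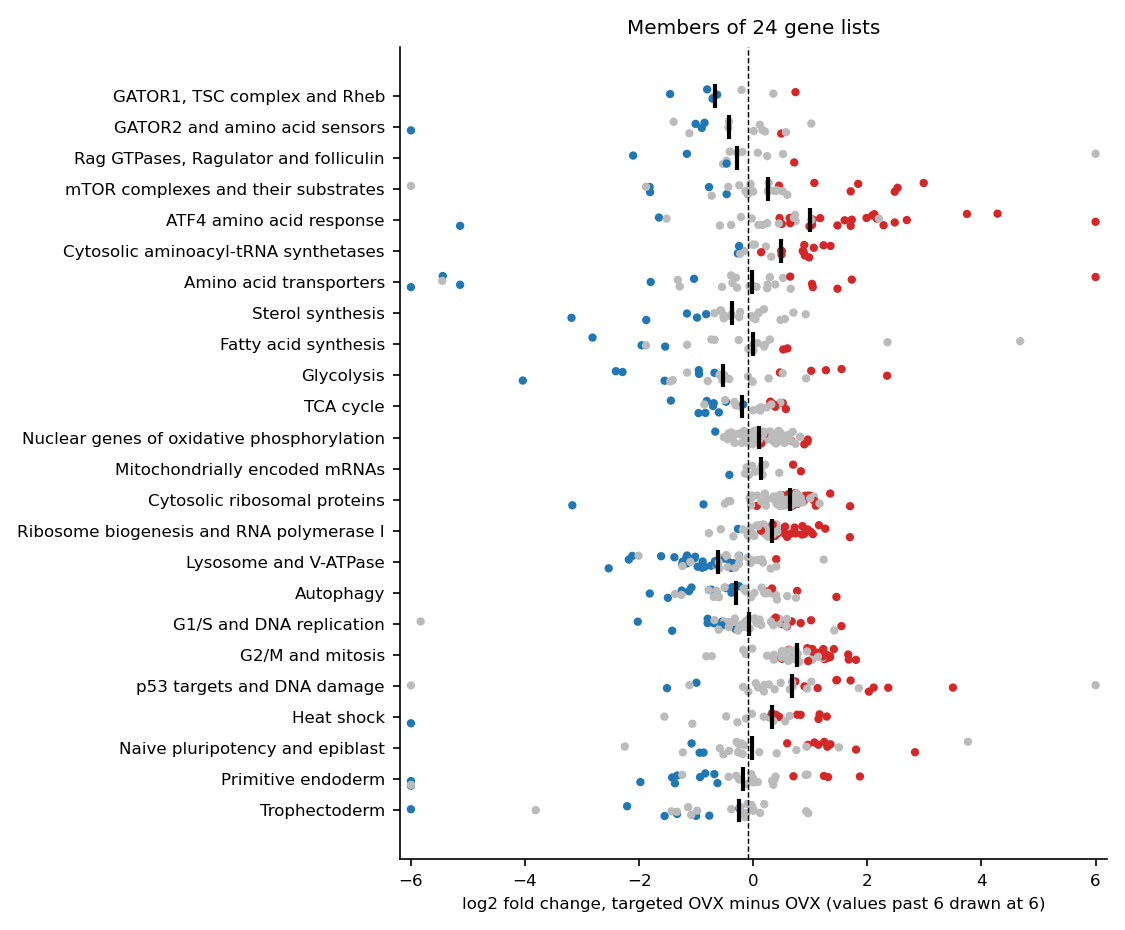
Log2 fold change of targeted OVX against OVX (horizontal axis, values past 6 drawn at 6) for the tested members of 24 gene lists; red points lie above and blue points below both OVX libraries in both targeted libraries, grey points overlap, thick bars are list medians and the dashed line is the median of all genes (−0.09). The bar of the ATF4 list is at 1.001 and that of the lysosome list at −0.61.

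In lipid metabolism, Insig1 stood out among 25 genes of sterol synthesis. Insig1 retains the sterol sensor SCAP in the endoplasmic reticulum and is itself a target of the SREBP factors. It was at 3.25 and 6.23 CPM in targeted OVX, 40.4 and 45.8 CPM in OVX and 7.998 and 15.1 CPM in E4.5, so both targeted libraries lay far below OVX. The difference of −3.19 ± 0.49 missed the threshold (adjusted p = 0.0554). It passed without OVX replicate 1 (adjusted p = 0.026), and over the alternatives the adjusted p ranged from 4.51e-08 to 0.595. Fdps, an enzyme of the pathway, was at 45.5 and 23.6 CPM against 45.8 and 109 CPM (−1.16 ± 0.43, adjusted p = 0.354). In the list, 5 genes lay below OVX and 0 above, with a median of −0.38 that became −0.70 without OVX replicate 1 and 0.14 without OVX replicate 2. The fatty acid synthesis list had a median of −0.003, or −0.33 without targeted replicate 1. Me1, which supplies NADPH for it, was at 23.2 and 11.98 CPM against 40.3 and 62.1 CPM (−1.54 ± 0.51, adjusted p = 0.299).

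In carbon metabolism, 7 of 26 glycolysis genes lay below OVX and 5 above, with a median of −0.52 that became −0.29 without OVX replicate 1 and −0.01 without OVX replicate 2. Slc2a3, the glucose transporter GLUT3 of the trophectoderm, was at 136 and 139 CPM in targeted OVX, 332 and 475 CPM in OVX and 190 and 257 CPM in E4.5 (−1.55 ± 0.34, adjusted p = 0.126). Ldha, which makes lactate, was at 92.2 and 64.8 CPM against 120 and 184 CPM (−0.95 ± 0.42, adjusted p = 0.442). Of 26 TCA cycle genes, 9 lay below (34.6%) and 5 above (19.2%), with a median of −0.20 that was −0.46 without targeted replicate 1 and −0.05 without targeted replicate 2. Sdhc and Sdha, both of succinate dehydrogenase, had differences of −1.44 ± 0.37 and −0.69 ± 0.28. Sdhc was at 77.4 and 58.2 CPM against 113 and 256 CPM. Its log2 fold change was −1.93 without OVX replicate 1 and −0.74 without OVX replicate 2. The adjusted p of Sdhc ranged from 0.00629 to 0.595 over the alternatives.

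Many genes of mitosis lay above OVX, to a size that differed between the OVX libraries. Of 48 genes of G2/M and mitosis, 21 lay above (43.8%, against 12.8%) and 0 below, with a median of 0.77. The median was 1.74 without OVX replicate 1 and 0.28 without OVX replicate 2. Aurka, a kinase of the spindle poles, was at 198 and 163 CPM in targeted OVX, 79.15 and 34.1 CPM in OVX and 123 and 126 CPM in E4.5 (1.67 ± 0.61, adjusted p = 0.353). Cenpa, the centromere histone, was at 155 and 141 CPM against 80.1 and 40.97 CPM (1.29 ± 0.51, adjusted p = 0.394), with E4.5 at 133 and 130 CPM. Of 52 genes of G1/S and DNA replication, 9 lay above and 9 below, with a median of −0.07.

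Among 30 p53 targets and DNA damage genes, 10 lay above OVX (33.3%) and 2 below, with a median of 0.69 that became 0.01 without targeted replicate 1. Mdm2, the ubiquitin ligase that limits p53, was at 66.9 and 36.5 CPM in targeted OVX against 11.0 and 20.7 CPM in OVX (1.71 ± 0.46, adjusted p = 0.216). Eda2r, a death-domain receptor, was at 64.8 and 55.2 CPM against 13.6 and 9.70 CPM, with E4.5 at 3.63 and 3.65 CPM (2.37 ± 0.59, adjusted p = 0.177). Plk2, a stress-induced kinase, was at 27.3 and 17.8 CPM against 2.94 and 1.06 CPM (3.50 ± 0.87, adjusted p = 0.176). Bax, an activator of cell death, was at 482 and 540 CPM against 272 and 196 CPM (1.13 ± 0.40, adjusted p = 0.338). The cell cycle inhibitor Cdkn1a, at 149 and 110.5 CPM against 45.0 and 183 CPM, and Ccng1, at 137 and 71.3 CPM against 44.9 and 85.3 CPM, overlapped between groups. These genes are also known to respond to DNA breaks, and without a group given control guides a response to cutting and one to loss of the 2 genes cannot be told apart.

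Of 21 heat shock genes, 9 lay above OVX (42.9%) and 1 below, with a median of 0.33 that was 0.05 without targeted replicate 1 and 0.58 without OVX replicate 2. Hspa9, the mitochondrial chaperone mortalin, was at 254 and 407 CPM in targeted OVX against 132 and 139 CPM in OVX (1.29 ± 0.30, adjusted p = 0.145). Hsph1, a nucleotide exchange factor for HSP70, was at 110 and 99.997 CPM against 53.3 and 40.5 CPM (1.16 ± 0.33, adjusted p = 0.236), with E4.5 higher than both, at 203 and 184 CPM.

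Among lineage genes, the epiblast list had a median of −0.03, with 9 of 30 above OVX and 3 below. The median was 0.80 without OVX replicate 2, −0.32 without targeted replicate 1 and 0.40 without targeted replicate 2. Dppa2, a chromatin factor of early embryos, was at 138 and 76.7 CPM in targeted OVX, 28.9 and 32.7 CPM in OVX and 198 and 165 CPM in E4.5 (1.80 ± 0.34, adjusted p = 0.0874). Pou5f1, the pluripotency factor OCT4, was at 26.9 and 28.4 CPM against 9.48 and 12.96 CPM, with E4.5 at 111 and 82.5 CPM (1.299 ± 0.40, adjusted p = 0.271). In both genes the targeted libraries lay between OVX and E4.5. The other epiblast markers, Sox2, Nanog, Klf4 and Esrrb, overlapped between targeted OVX and OVX on the scale of library totals. On that scale Nanog was at 12.5 and 1.92 CPM in targeted OVX against 3.42 and 22.7 CPM in OVX. Esrrb was at 9.62 and 0.344 CPM against 5.71 and 12.6 CPM. Of 30 primitive endoderm genes, 10 lay below and 4 above, with a median of −0.18 that ranged from −0.36 to 0.05 over the alternatives. Lrp2, the endocytic receptor megalin, was at 154 and 39.4 CPM against 27.9 and 25.0 CPM, with E4.5 at 414 and 385 CPM (1.87 ± 0.53, adjusted p = 0.236), and its adaptor Dab2 at 178 and 145 CPM against 312 and 501 CPM (−1.33 ± 0.32, adjusted p = 0.164).

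Of 27 trophectoderm genes tested, 7 lay below OVX (25.9%, against 19.1%) and 0 above, with a median of −0.24. The median was −0.99 without targeted replicate 2, −0.55 without OVX replicate 1 and −0.05 without OVX replicate 2. Gata3, a transcription factor of the lineage, was at 121 and 152 CPM in targeted OVX against 217.5 and 329 CPM in OVX (−1.002 ± 0.35, adjusted p = 0.323). Cldn4, a tight junction protein, was at 287 and 194 CPM against 339 and 1886 CPM (−2.21 ± 0.60, adjusted p = 0.225), where OVX replicate 2 carries most of the difference. The log2 fold changes of Cldn4 and Dab2 were −2.98 and −1.65 without OVX replicate 1, and −0.50 and −0.96 without OVX replicate 2. Over the alternatives their adjusted p ranged from 1.35e-05 to 0.804 and from 0.000452 to 0.595. The summed trophectoderm markers given above were also lower in targeted OVX than in OVX replicate 2, and the part of lineage proportions in these differences was not tested. Of 33 genes of implantation and adhesion, 8 lay below and 1 above, with a median of −0.16 that was −0.42 without OVX replicate 1, −0.72 without targeted replicate 1 and −0.003 without OVX replicate 2.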

How the data were processed

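RNA of whole blastocysts was amplified as full-length cDNA without molecular identifiers, per the labels' protocols. The submitters' processing notes name cutadapt 1.9, HISAT2 2.0.4, StringTie 1.3.4d and GRCm38; the annotation is not given in the sources used here. The authors deposited 1 table of 31528 genes with whole-number estimated counts, taken as they stand, and FPKM values computed by the authors.

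Genes were kept with filterByExpr (21808) and scaled by TMM. A single edgeR 4.0.16 quasi-likelihood fit took in the 13 libraries and their 6 group means (residual df 7), and genes were called where the Benjamini-Hochberg adjusted p was below 0.05. SEs are the fold change divided by the root of F. The test was tested on simulated data with known changes, where a larger share of DESeq2's calls than of edgeR's was false. Those data were drawn once from edgeR's own fitted dispersions, so they cannot rank the tests on the real libraries. DESeq2's counts are given for comparison only. Alternatives used DESeq2 1.42.0, limma 3.58.1 on log2 of FPKM plus 1 or 0.1, other scalings and filters, a replicate block and leaving out each library; offsets for length and GC content were added after the data were seen.

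Members and the 40 gene lists were chosen with earlier results of these data known. Named were the targeted genes, up to 12 per direction by size among called genes of mean log2 CPM of at least 4 with separated groups and replicates within 4-fold (by smallest p where fewer than 5 were called), the 4 largest without the 4-fold bound, up to 4 called genes per list, and all of the GATOR1 and TSC list; other genes were chosen after their values were seen. The SEs include the spread among libraries as estimated in the fit, while floors cover counting error only. Values of a few genes are left out of the text and plots.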

Additional observations from a re-analysis of the deposited data

How the results depend on the processing

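The number of called genes depended on the processing more than the fold changes did. With main counts of 1 higher and 7 lower, median-of-ratios scaling gave 0 higher, DESeq2 gave 348 higher and 899 lower, limma on log2 of FPKM plus 1 gave 34 and 19 and on FPKM plus 0.1 gave 10 and 13, no low-count filter gave 142 and 494, a mean CPM of at least 5 gave 2 higher, a term for libraries with muscle transcripts gave 15 and 39, and length and GC offsets, chosen after seeing the data, gave 3 and 13. The fit of only the 4 libraries gave 0 and 0. The muscle term marked OVX replicate 1 and every library of a group cultured in KSOM medium with reduced nutrients. Within OVX it sets replicate 1 aside, so it largely repeats the fit without OVX replicate 1 and is no separate check. The median of the G2/M list was 1.747 with the term and 1.736 without OVX replicate 1. Leaving out 1 library gave 3 to 39 higher and 19 to 169 lower; OVX replicate 1 gave 39 and 77, OVX replicate 2 gave 15 and 88, targeted replicate 1 gave 10 and 169 and targeted replicate 2 gave 3 and 19, each with a lone library assumed to vary like the other groups. The cause was not tested. Of the 8 calls, 8 were also made by DESeq2, 3 with FPKM plus 1, 5 with FPKM plus 0.1, 5 with counts divided by 4 and 5 without targeted replicate 2.

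With the replicate block the fit gave 0 higher and 4 lower, with 3 of the 8 calls among them; adjusted p-values were 0.081 for Eif4ebp1 and 0.0617 for Mlycd, Cryl1 and Mettl27. The labels give no shared batch for a number. The deviations of same-numbered libraries correlated at 0.081 across 8992 genes. These genes are not independent, so the value cannot show whether same-numbered samples shared a batch.

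Directions reversed for 4 genes, none of them called: leaving out 1 library, Tsc1 ranged from −0.18 to 1.16, Tbc1d7 from −0.59 to 0.10, Phgdh from −1.085 to 0.16 and Cdkn1a from −0.50 to 1.53, and Cdkn1a was −0.19 with library totals and −0.49 with the muscle term. Across 8987 genes, which are not independent replicates, log2 fold change correlated with transcript length at a Spearman rho of −0.157; its part in the results was not tested beyond the offsets. Depth limits genes of a few CPM, such as Mlycd and Cryl1.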
